A study of Mus musculus with 15 samples.

Results

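Of 15 RNA libraries made from mouse vascular tissue, 3 carried far more heart muscle RNA than the rest. These 3 heart-rich libraries, NS 1, NS 5 and AngII 8, were chosen by their values, since they stood highest in heart muscle genes such as Myh6, Tnnt2 and Myl7. They were set beside 6 comparison libraries (NS 4, AngII 10, Lien 12, Lien 13, Lien 14 and Lien 15), which with them are the libraries that hold less than 10 FPKM of Th, the gene for tyrosine hydroxylase of sympathetic nerve. The 6 libraries outside the rule (NS 2, NS 3, AngII 6, AngII 7, AngII 9 and Lien 11) held 13.5 to 107 FPKM of Th. FPKM scales the fragments of a transcript to its length and to the size of the library, so levels of different genes can be compared.

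All mice were C57BL/6 and 10 weeks old, and the 3 labelled groups hold 5 libraries each. Lien libraries are labelled hypertensive with Lien added, which the title of the series spells out as liensinine, an alkaloid of lotus. AngII libraries are labelled hypertensive, and the name refers to angiotensin II, which constricts arteries. NS libraries are labelled normal. The labels give neither dose nor route and do not tie libraries to individual mice, so the p-values below measure the spread between libraries, which may be technical. The samples are labelled vascular tissue, whereas the extraction note speaks of dissected hearts, and ribosomal RNA was removed from total RNA before sequencing. The heart-rich set held 2 NS libraries, 1 AngII library and 0 Lien libraries, and the comparison set held 4 Lien, 1 AngII and 1 NS library, so label and heart muscle content overlap in part.

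Heart muscle cells contract through sarcomeres, in which myosin thick filaments pull on actin thin filaments anchored at Z-discs, and calcium released from the sarcoplasmic reticulum switches the troponin complex on. Atria and ventricles use different myosin light chains, and atrial cells store the hormone Nppa. In mice, heart muscle also continues as a sleeve around the pulmonary veins, and the roots of the great vessels sit directly on the heart. In bulk RNA, fewer cells of a type and less RNA per cell cannot be told apart.

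A gene was said to follow heart muscle when each of the 3 heart-rich libraries lay above each of the 6 comparison libraries and the means differed by at least 1 on the log2(FPKM + 1) scale. Of 14849 genes measured (at least 0.5 FPKM in at least 3 of the 9 libraries), 152 followed heart muscle (1.02%) and 7 ran the opposite way (0.0471%). Since the libraries were picked for heart muscle genes, these counts and all differences between the 2 sets are descriptions with no test. The median difference over all measured genes was 0.10, and without the demand on size 727 genes lay wholly above and 47 wholly below. Leaving out AngII 8 gave 229 genes following heart muscle, and the 8 other libraries left out in turn gave 158 to 203, with fewer libraries that had to separate in each case. The genes running the opposite way numbered 9 to 32 in these 9 settings, at 28 without NS 1, 30 without NS 5, 32 without AngII 8, 13 without NS 4, 11 without AngII 10, 17 without Lien 13 and 12 without Lien 14. With a pseudocount of 0.1 the counts were 279 following and 20 opposed, and against all 12 other libraries 62 followed. Opposed genes numbered 19 with quantile normalization and 15 with scaling to one median.

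The 3 markers stood as follows. Myh6, the main myosin heavy chain of the adult mouse heart (chr14:54941921-54966927, minus strand, the whole gene with its introns, GRCm38), reached 176 FPKM in NS 1, 338 in NS 5 and 146 in AngII 8, against a lowest of 0, a median of 6.49 and a highest of 50.1 FPKM in the comparison libraries. Myl7, the atrial regulatory light chain of myosin (chr11:5896637-5898782, minus strand), reached 195, 286 and 186 FPKM, against 0, 20.1 and 44.0 FPKM as the lowest, median and highest comparison values. Tnnt2, cardiac troponin T (chr1:135836354-135852260, plus strand), reached 33 FPKM in NS 1, 309 in NS 5 and 187 in AngII 8, against 0.820 to 29.1 FPKM (median 11) in the comparison libraries. The sets did not overlap in any of the 3 genes, but Tnnt2 in NS 1 lay close to Lien 13. In the 6 libraries outside the rule Myh6 stayed at or below 0.451 FPKM, Myl7 at or below 0.216 and Tnnt2 at or below 3.64.

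**Figure D1:**
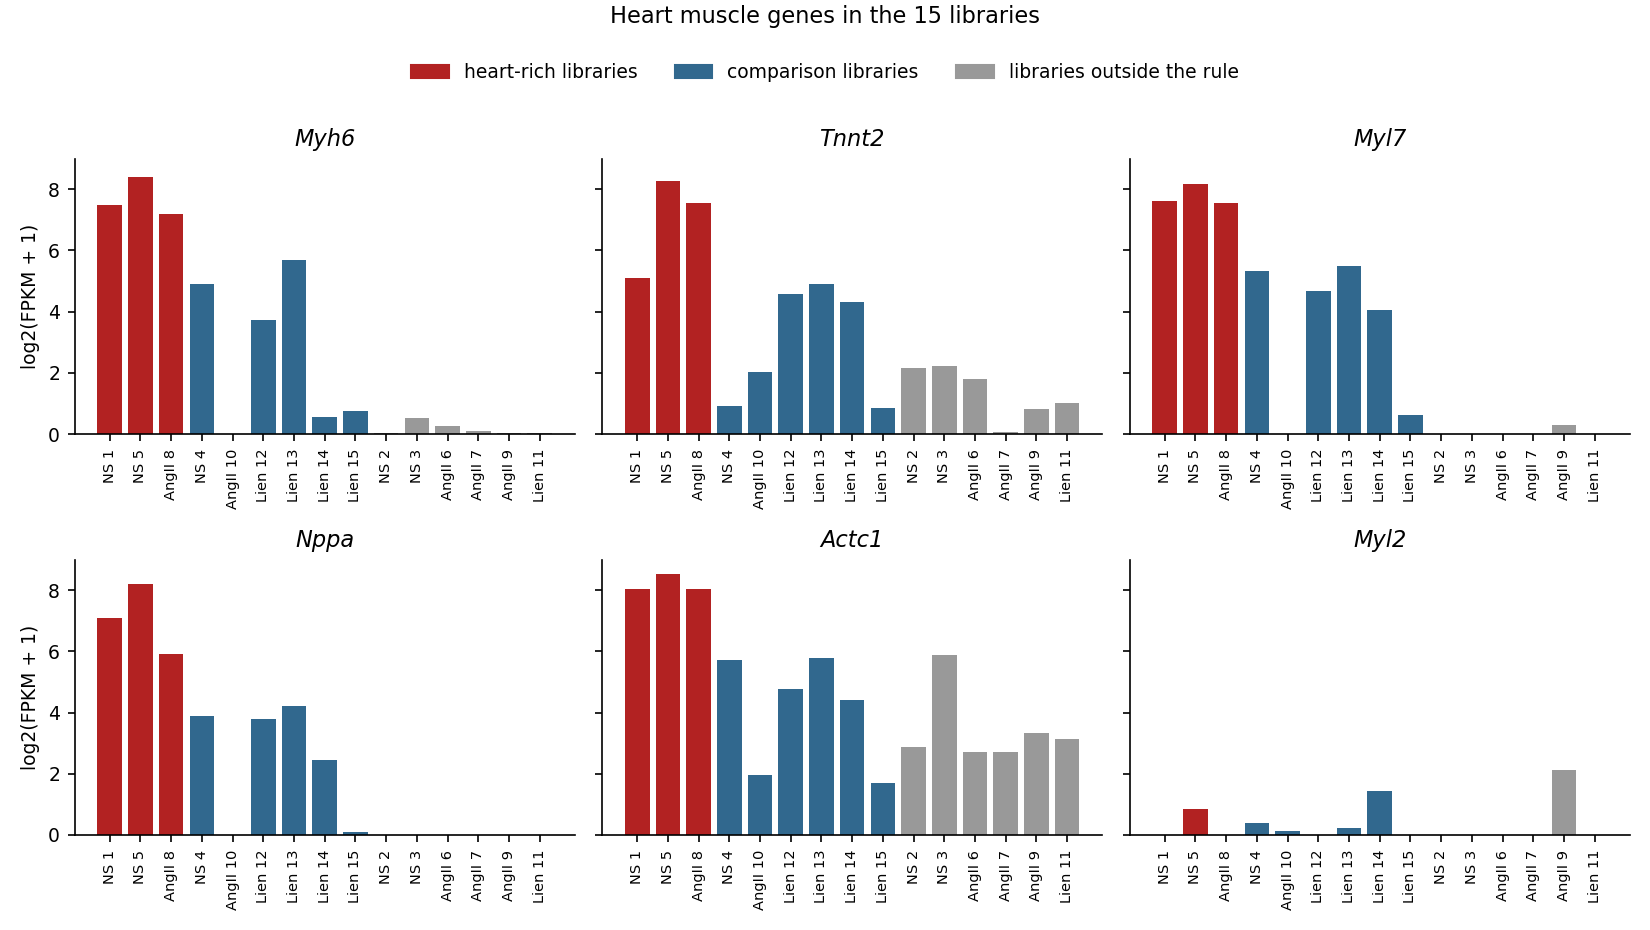
Levels of 6 heart muscle genes in each of the 15 libraries as bars on the log2(FPKM + 1) scale, with the 3 heart-rich libraries on the left (red), the 6 comparison libraries in the middle (blue) and the 6 libraries outside the rule on the right (grey). Myh6, Tnnt2, Myl7, Nppa and Actc1 are highest in the red libraries, while Myl2, the ventricular light chain, reaches 0.806 FPKM in NS 5 and is listed at 0 in NS 1 and AngII 8.

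The comparison libraries were not free of heart muscle RNA. The measure was the 6 of 9 heart-restricted genes with a mean of at least 10 FPKM in the heart-rich libraries. That limit used the values of the heart-rich libraries and left out Ryr2, Mybpc3 and Nkx2-5. By this measure the median level in NS 4 was 10.8% of the heart-rich mean, in Lien 12 10.9%, in Lien 13 18.1% and in Lien 14 8.20%. Other genes give other percentages: Ryr2 had a median of 1.98 FPKM in the comparison libraries, against 4.17 to 5.74 in the heart-rich ones. AngII 10 and Lien 15, and all 6 libraries outside the rule, held at most 0.300%. The step between these 4 libraries and the remaining 2 was set at 1 FPKM of Myl7 after the values were seen. AngII 10, the 1 AngII library of the comparison set, thus held little heart muscle RNA, while NS 4, its 1 NS library, held some.

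Thick filament genes followed heart muscle in 7 of 11 measured members, with a median difference of 1.74. Myl4, the atrial essential light chain of myosin, was the highest heart gene, at 312 FPKM in NS 1, 421 in NS 5 and 328 in AngII 8, against 0.818 to 79.7 FPKM (median 35.3) in the comparison libraries. Mybphl, a myosin-binding protein of atrium, stood at 30.6, 48.9 and 33 FPKM, against 0 to 7.88 FPKM (median 4.20). The giant protein Ttn (difference 1.32), which spans the sarcomere, followed at much lower FPKM and counted as measured through the heart-rich libraries alone. Mybpc3, cardiac myosin-binding protein C, broke the pattern: it was listed at 0 in NS 1 and NS 5 and at 13.5 FPKM in AngII 8, against 0 to 4.11 FPKM in the comparison libraries. A single transcript, of the 3 annotated, stands for Mybpc3 in the table, and an exact 0 there can be a failed estimate.

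Thin filament genes followed in 6 of 8 measured members, with a median difference of 3.27. Actc1, the cardiac actin, stood at 264 FPKM in NS 1, 369 in NS 5 and 263 in AngII 8, against 2.22 to 53.8 FPKM (median 23.1) in the comparison libraries. Tnnc1, the calcium-binding troponin C of heart and slow muscle, stood at 48.6, 80.0 and 41.9 FPKM, against 0.132 to 10.7 (median 6.77). Tnni3, cardiac troponin I, stood at 34.2, 66.2 and 14.4 FPKM, against 0.0208 to 10.2 (median 2.76). AngII 8 was thus the lowest of the 3 for Tnni3, but it was not the lowest for Tnnt2. Tpm1, tropomyosin of both smooth and striated muscle, overlapped between the sets at 256, 252 and 181 FPKM, against 62.5 to 198 FPKM. Its difference was 0.72.

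Some of these genes carry known muscle promoter motifs in the sequence before their start. The windows below are the last 120 bases before the start in the RefSeq table (GRCm38.p6), written 5′ to 3′ on the strand of the gene, with the motif in capitals. Myl7 (chr11:5898783-5898902, minus strand) and Actc1 (chr2:114052876-114052995, minus strand) hold a CArG box, the sequence that serum response factor binds. Myoz2 (chr3:123034988-123035107, minus strand), a Z-disc gene that follows heart muscle, holds a MEF2 site. These 3 are examples picked by hand, and each is a contractile gene that followed heart muscle and has a motif within these bases. Ttn and Ldb3, which also followed, hold a motif within 250 bases before the start and are not shown. The box begins 61 bases before the start in Myl7 and 47 in Actc1, and the MEF2 site 33 bases before it in Myoz2.
Myl7: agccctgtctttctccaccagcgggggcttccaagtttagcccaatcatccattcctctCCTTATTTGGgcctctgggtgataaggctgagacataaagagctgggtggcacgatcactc
Actc1: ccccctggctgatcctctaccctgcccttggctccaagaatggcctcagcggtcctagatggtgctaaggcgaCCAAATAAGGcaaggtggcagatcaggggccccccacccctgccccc
Myoz2: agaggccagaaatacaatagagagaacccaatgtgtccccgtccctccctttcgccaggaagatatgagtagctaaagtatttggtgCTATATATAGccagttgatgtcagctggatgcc
Of the 152 genes that follow heart muscle, 115 matched a window in that table, as did 10498 of all measured genes. Within 250 bases before the start, with both strands searched, a MEF2 site was found in 5 of the 115 (4.35%), against 0.524% of measured genes, and in 0.508% of all 32851 windows. A CArG box was found in 5 (4.35%), against 1.5% of measured genes and 1.47% of all windows. The letters AGATAA, bound by factors such as that of Gata4, were found in 23 (20%), against 7.28% of measured genes and 9.99% of all windows. The genes with a MEF2 site were Klhl33, Klhl41, Myoz2, Ppp1r3a and Ttn, and those with a CArG box Actc1, Ldb3, Myl7, Rnf128 and Tmem163. A match is a run of letters and no record of binding.

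Z-disc and stretch genes followed in 7 of 14 measured members, with a median difference of 1.37. Csrp3, a Z-disc protein of striated muscle, stood at 45.4 FPKM in NS 1, 99.98 in NS 5 and 64.8 in AngII 8, against 0 to 16.6 FPKM (median 6.80). Ankrd1, a stretch-responsive repeat protein of heart, stood at 55.7, 118 and 70.2 FPKM, against 5.11 to 16.0 (median 10.3). Tcap, which caps titin at the Z-disc, stood at 129, 167 and 157 FPKM, against 9.32 to 45.3 (median 36.8), but NS 3, outside the rule and richest in skeletal muscle, held 341. Des (difference 0.78), Cryab (0.89) and Hspb7 (0.54), which vessel wall also expresses, did not meet the rule.

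Calcium handling genes followed in 6 of 15 measured members, and their median difference was 1.00. Sln, the small inhibitor of the calcium pump in atria, stood at 61.4 FPKM in NS 1, 85.0 in NS 5 and 64.0 in AngII 8, against 0 to 15.8 FPKM (median 7.17). Pln, the related inhibitor of ventricle and smooth muscle, stood at 27.2, 42.4 and 12.3 FPKM, against 1.30 to 5.94 (median 3.76). Atp2a2, the pump itself, stood at 302, 397 and 262 FPKM, against 64.7 to 130 (median 99.4), so the comparison libraries kept a high level of it. Casq2, which stores calcium in the reticulum (difference 2.89), Hrc (2.26) and Trdn (2.10) followed too. Ryr2, the calcium release channel, stood at 4.17, 5.74 and 4.60 FPKM, against 1.17 to 3.13 (median 1.98), which separates the sets but by 0.94. S100a1, Asph and Jph2 differed by 0.02 to 0.10.

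Of the peptide hormone list, 2 of 4 measured members followed. Nppa, atrial natriuretic peptide, stood at 136 FPKM in NS 1, 295 in NS 5 and 59.7 in AngII 8, against 0 to 17.6 FPKM (median 8.73) in the comparison libraries and 0 in all 6 libraries outside the rule. Corin, the protease that activates it, stood at 7.23, 8.12 and 6.24 FPKM, against 0.0464 to 1.24 (median 0.534). Corin thus varied much less among the heart-rich libraries than its substrate. Nppb, the related hormone raised in strained ventricle, reached 1.32, 3.91 and 0.266 FPKM and overlapped with the comparison libraries (0 to 0.789).

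Among ion channels and junction proteins, 5 of 12 measured members followed, with a median difference of 0.67. Kcnj3 and Kcnj5 form the potassium channel through which the vagus slows the atria. Kcnj3 stood at 3.23 FPKM in NS 1, 3.48 in NS 5 and 2.75 in AngII 8, against 0.0217 to 0.785 FPKM (median 0.310). Kcnj5 stood at 3.63, 3.26 and 2.82 FPKM, against 0 to 0.588 (median 0.0946). Chrm2, the muscarinic receptor that opens this channel and a gene outside all lists, named after its values were seen, stood at 3.32, 3.13 and 2.87 FPKM, against 0.0335 to 0.871 (median 0.199). It also reached 2.81 FPKM outside the rule, where Kcnj5 did not pass 0.0263. Pkp2 (difference 1.11) and Dsg2 (1.26), desmosome proteins of heart, followed as well, while Gja1 (0.17), Jup (0.31) and Cdh2 (0.27) did not.

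Of 15 measured transcription factors 2 followed, and their median difference was 0.50. Nkx2-5, a factor of heart muscle, stood at 1.21 FPKM in NS 1, 2.38 in NS 5 and 2.24 in AngII 8, against 0 to 0.525 FPKM (median 0.192), and was listed at 0 in all 6 libraries outside the rule. Gata4 stood at 1.73, 2.84 and 2.00 FPKM, against 0.0373 to 0.465 (median 0.0931), so it counted as measured through the heart-rich libraries alone. Mef2a, Hey2, Tbx3 and Tbx18, which other cells of the vessel wall also express, overlapped between the sets with differences of -0.26 to 0.33.

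Over all of these groups, the heart list holds 93 genes. Of these, 79 were measured and 35 followed (against 1.02% of all measured genes), 0 ran the opposite way, and the median difference was 1.02. The 14 that were not measured reached 0.5 FPKM in fewer than 3 of the 9 libraries. Of the 79, 3 passed that limit in the heart-rich libraries alone, namely Ttn, Gata4 and Kcnip2. All 3 are among the 35, but give no support, since only the libraries chosen for heart muscle brought them in. Under other pseudocounts, filters and scalings and against all 12 other libraries the count ran from 26 to 40.

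The atrial and ventricular lists had similar differences between the library sets, while the levels of some paired genes lay far apart inside the heart-rich libraries. Of the atrial list 7 of 13 measured members followed (median difference 1.66), the 7 being Myl7, Myl4, Nppa, Sln, Kcnj3, Kcnj5 and Mybphl, and Gja5, Nr2f2, Tbx5, Cacna1d, Dkk3 and Pam did not. Of the ventricular list 2 of 5 followed, Kcnip2 and Pln, and all 5 were higher on average (median difference 1.37). Kcnip2 counted as measured through the heart-rich libraries alone. Myl2, the ventricular regulatory light chain, reached 0.806 FPKM in NS 5 and was listed at 0 in NS 1 and AngII 8, and Irx4, a ventricular factor, was listed at 0 in all 15 libraries. Myl4 was 188 times as high as its ventricular partner Myl3 in NS 1, 73.4 times in NS 5 and 148 times in AngII 8. Myh6 was 97.2, 120 and 102 times as high as Myh7, the slow heavy chain, although these genes are near copies and fragments of one may be counted for the other. Bmp10, a hormone-like factor of right atrium in mice, was listed at 0 in all 3 libraries.

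**Figure D2:**
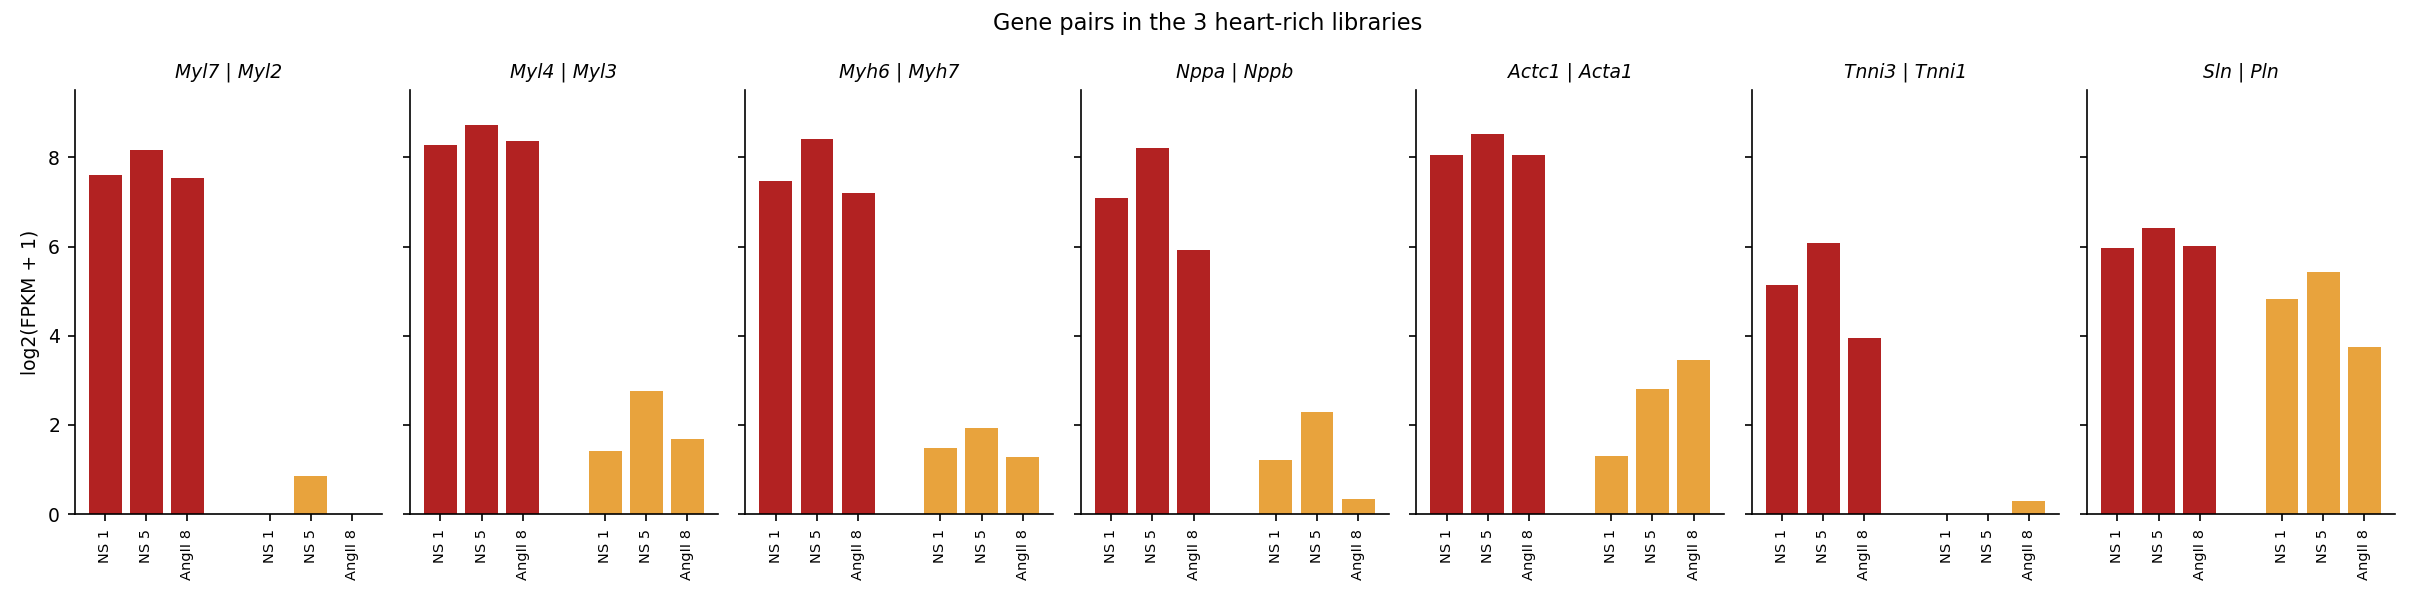
Levels of 7 gene pairs in the 3 heart-rich libraries as bars on the log2(FPKM + 1) scale, the first gene of each pair in red and the second in orange. Myl7, Myl4, Myh6, Nppa, Actc1 and Tnni3 stand far above Myl2, Myl3, Myh7, Nppb, Acta1 and Tnni1, while Sln lies 2.01 to 5.18 times above Pln.

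Some atrial genes kept similar proportions to each other in the libraries with heart muscle RNA and others did not. In the 7 libraries with more than 1 FPKM of Myl7 (the 3 heart-rich ones, NS 4, Lien 12, Lien 13 and Lien 14), the level of Sln was 19.7%, 20.2%, 19.5%, 19.0%, 20.3%, 19.9% and 20.3% of that of Myl4. The Myl4 level itself ran from 33 to 421 FPKM over those libraries. Kcnj3 lay at 0.828% to 1.04% of Myl4, Mybphl at 9.68% to 13.3%, Myl7 at 47.6% to 68.0% and Actc1 at 60.8% to 87.8%. Kcnj5, also on the atrial list, was less even, from 0.264% in Lien 12 to 1.17% in NS 1. Nppa ran from 13.5% in Lien 14 to 70.1% in NS 5, and Tnni3 from 2.93% in Lien 13 to 27.1% in Lien 12. Tnnt2 (1.5% to 73.5%) and Myh6 (1.45% to 80.3%) were the least even. Myh6 was at 0.480 FPKM in Lien 14, where Myl7 was at 15.7 and Myl4 at 33, and Tnnt2 was at 0.898 FPKM in NS 4, where Myl4 was at 59.7. Both genes are split over several transcripts in the table, and the gene values are the sums of these. Most of Tnnt2 lay on 1 transcript in NS 5 (236 of 309 FPKM) and on another in AngII 8 (109 of 187 FPKM). Whether this split bears on the uneven ratios was not tested. These ratios, computed after the values were seen, cover 20 genes that follow heart muscle and have no test.

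Energy genes that striated muscle shares fell into those that followed and those that overlapped. Of 13 measured members 7 followed heart muscle, with a median difference of 1.35. Mb, myoglobin, stood at 166 FPKM in NS 1, 244 in NS 5 and 148 in AngII 8, against 4.25 to 43.2 FPKM (median 23.6), and Ckmt2, the mitochondrial creatine kinase of muscle, at 60.5, 71.5 and 55.8 FPKM, against 0.0380 to 11.7 (median 5.57). Cox6a2, the muscle subunit of cytochrome oxidase, differed by 3.29 and Pgam2, a glycolytic enzyme of muscle, by 3.35. Cox8b (-0.05), Cox7a1 (-0.01), Fabp3 (0.37) and Cpt1b (-0.06), which brown fat makes as well, stood at more than 100 FPKM in all 9 libraries and overlapped. Ucp1, the uncoupling protein of brown fat, stood at 1365, 1376 and 613 FPKM, against 933 to 1921 FPKM. Of the general respiratory chain, 1 of 75 measured nuclear subunits followed, Atp5g1, which is near the 1.02% of all measured genes, and the median difference was -0.03. Of the mitochondrially encoded subunits 0 of 9 followed (median difference -0.47).

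**Figure D3:**
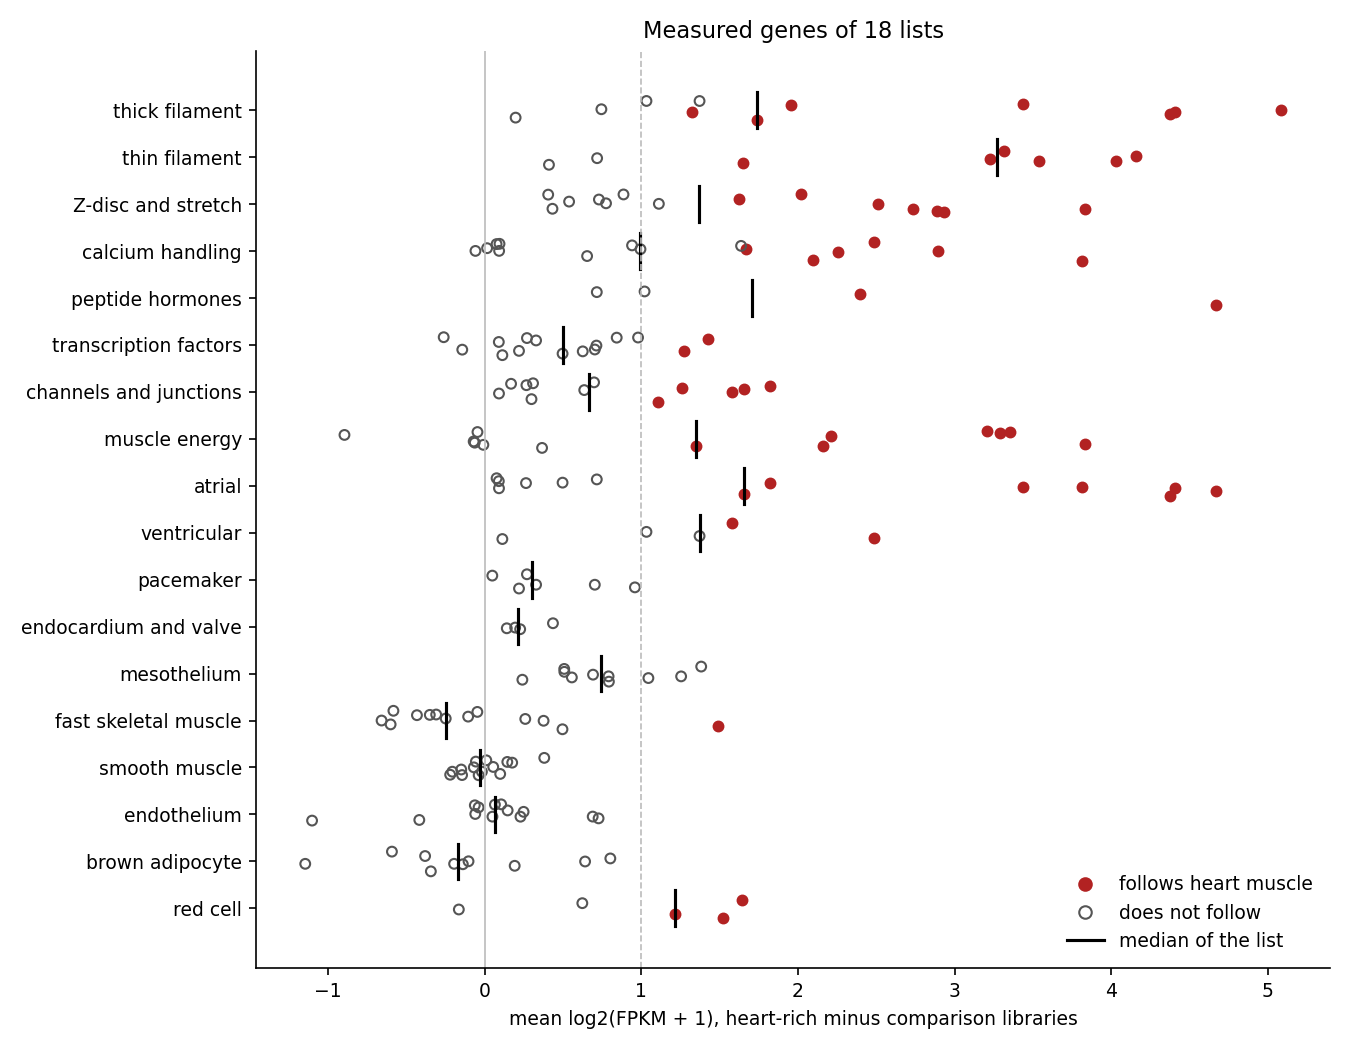
Difference of the mean log2(FPKM + 1), heart-rich minus comparison libraries, for each measured gene of 18 lists; filled red points follow heart muscle, open points do not, black bars are list medians and the dashed line marks a difference of 1. Filled points gather in the contractile, calcium, energy and atrial lists. The medians of smooth muscle (-0.03), endothelium (0.07) and brown adipocyte genes (-0.17) lie near 0. Single genes run from -1.10 to 0.73 in endothelium and from -1.15 to 0.80 in brown adipocyte.

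Genes of other cells in and around the heart are given by their medians, since with 1.02% of all measured genes following, a count of 0 in a short list is near the background. None of the 14 smooth muscle genes (median difference -0.03), 13 endothelial genes (0.07), 12 fibroblast genes (0.31), 6 measured pacemaker genes (0.30) or 4 endocardial and valve genes (0.21) met the rule. Acta2, smooth muscle actin, stood at 776, 1433 and 553 FPKM, against 188 to 1765. All 10 measured genes of mesothelium and epicardium, the outer lining, were higher on average in the heart-rich libraries (median 0.74), but none met the rule. Upk3b, a mesothelial marker, stood at 7.41 FPKM in NS 1, 15.5 in NS 5 and 12.1 in AngII 8, against 1.17 to 8.29 (median 4.31). Their part in the gene pattern was not tested. Of 13 fast skeletal muscle genes 1 followed, the light chain Myl1, and the median was -0.25.

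Red cell genes were the 1 list unrelated to muscle that followed in more than 1 member. Hbb-bs, adult beta globin, stood at 3246 FPKM in NS 1, 3434 in NS 5 and 3734 in AngII 8, against 791 to 2396 FPKM (median 1562). Both this gene and Alas2 lay above all 12 other libraries. Alas2, the first enzyme of haem synthesis in red cells, stood at 99.8, 61.0 and 68.7 FPKM, against 13.1 to 51.4 (median 25.5). Hbb-bt followed (difference 1.65), whereas Hba-a1 (0.62) and Hba-a2 (-0.16), near-identical copies whose fragments can be split between them, did not. NS 3, outside the rule and poor in heart genes, reached 2690 FPKM of Hbb-bs.

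Outside all lists, 105 genes followed heart muscle. The largest differences among those with a mean of at least 1 FPKM belonged to Eef1a2, the muscle and nerve form of elongation factor 1 alpha (difference 2.80), to Specc1l (2.74) and to Trim54, a sarcomere-bound ubiquitin ligase (2.60). Others were Unc45b, a chaperone of myosin (2.43), Smyd1, a muscle methyltransferase (2.20), and the ubiquitin ligases Trim63 (2.11) and Trim72 (2.10). Hamp, hepcidin, the iron-regulating peptide that heart also makes, stood at 13 FPKM in NS 1, 14.4 in NS 5 and 8.51 in AngII 8, against 0 to 5.78 FPKM (median 1.36), with 21.5 FPKM in AngII 9. Many of these genes are not particular to heart. Of all 152 genes, 60 lay above all 12 other libraries, 26 of them from the heart list. Of the 92 others, 59 were exceeded by NS 3 or AngII 9 alone, the libraries richest in skeletal muscle genes, 8 by other libraries outside the rule alone and 25 by both kinds. Trim54, for example, stood at 45.3 FPKM in NS 3, and Ckm, the muscle creatine kinase, at 28.5, 38.7 and 32.2 FPKM in the heart-rich libraries, against 2.58 to 15.6 in the comparison libraries and 1830.2 in NS 3. Genes among the 60 that were named after their values were seen include Tnni3k, a kinase bound to cardiac troponin I (difference 1.74), Mylk3, the cardiac myosin light chain kinase (1.96), Lrrc10 (1.64) and Tecrl (1.58).

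At the edge of the rule, Mylf-ps (difference 1.00) and Slc38a10 (1.01) lay just inside, and Cd209g (0.99) and a second Nnt entry (1.00) just outside. Specc1l met the rule but was as high in some libraries poor in heart genes. It stood at 17.1, 12.8 and 13.9 FPKM, against 0.912 to 2.04, and at 15.1, 17.8 and 12.7 in AngII 6, AngII 7 and AngII 9.

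The 7 genes that ran the opposite way were Lpin1, Gstm7, Plod3, Nkapd1, Arap3, Mtmr6 and Mapkbp1. Lpin1, a phosphatase of lipid synthesis (chr12:16535669-16610966, minus strand), stood at 4.48 FPKM in NS 1, 3.62 in NS 5 and 5.77 in AngII 8, against 22.3 to 58.4 FPKM (median 40.3) in the comparison libraries, a difference of -2.77. One of its 6 transcripts in the table accounted for this: it stood at 0.101, 0.112 and 0.263 FPKM, against 19.7 to 53.6, and also at 0.171 in NS 3 and 0.103 in AngII 9. Plod3, a collagen-modifying enzyme (-1.27), and Gstm7, a glutathione transferase (-1.35), had smaller differences. Of the 7 genes 3 lay below all 12 other libraries.

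Within labelled groups the direction of the 152 genes is fixed by the rule. Their size is in part set by it too, since the rule asks for a difference of at least 1 over the same libraries. The counts below are thus a description only. The difference was at least 1 in 123 within NS, in 131 within AngII and in 107 in both, and 185 of all 14849 measured genes reached it in both. Since the comparison set holds 1 NS and 1 AngII library, these within-label values rest on single libraries there.

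Transcripts that were assembled without a public identifier, which stay outside the gene values, showed the pattern at a similar rate. Of 11037 measured, 126 followed heart muscle (1.14%) and 29 ran the opposite way (0.263%). All transcripts of this kind held 17.04% of the FPKM sum in NS 1, 15.88% in NS 5 and 11.44% in AngII 8. In the comparison libraries they held 10.97% to 16.09%. Whether RNA of heart genes was assigned to them, and is thus missing from the gene values, was not tested.

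The comparisons between labelled groups were then examined for the heart list. Levels differed widely inside each group: the mean log2(FPKM + 1) of Myh6, Tnnt2 and Myl7 ran from 0.35 to 5.36 in Lien (median 2.98), from 0.06 to 7.43 in AngII (median 0.68) and from 0.73 to 8.28 in NS (median 3.73), and the groups overlapped. With limma over all 15 libraries, 12 of 15586 genes passed an adjusted p under 0.05 in AngII against NS (0.077%), 2 in Lien against AngII (0.0128%) and 36 in Lien against NS (0.231%). No gene of the 78 tested on the heart list passed in any of the 3 comparisons, while 3, 2 and 10 of them had an unadjusted p under 0.05, beside 1097, 997 and 1100 of the 15586 genes. Myh6 averaged 29.3 ± 65.3 FPKM in AngII and 109 ± 147 FPKM in NS (SD, n = 5 each; log2 difference -2.75, SE 1.84, limma adjusted p = 0.746). It averaged 12.7 ± 21.5 FPKM in Lien, at a log2 difference of 0.63 from AngII (SE 1.84, limma adjusted p = 0.919) and -2.12 from NS (SE 1.84, limma adjusted p = 0.910). In FPKM, the SD within NS (147) was larger than the gap of either other group to NS, while the SD within Lien (21.5) was smaller than its gap to NS. Between Lien and AngII, both SDs were larger than the gap between the means. The median over the heart list was -0.34 for AngII against NS, -0.20 for Lien against AngII and -0.60 for Lien against NS, beside 0.12, -0.13 and -0.01 over all genes tested, and the 3 comparisons share libraries. The smallest p on the list belonged to Tbx3, a factor of conduction tissue and other organs, which averaged 3.03 ± 0.64 FPKM in Lien and 5.63 ± 0.47 FPKM in NS (log2 difference -0.73, SE 0.15, limma adjusted p = 0.0801) and 4.04 ± 0.81 FPKM in AngII, and did not pass. In Lien against AngII the smallest belonged to Cacna1c (-0.69, SE 0.27, limma adjusted p = 0.740).

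**Figure D4:**
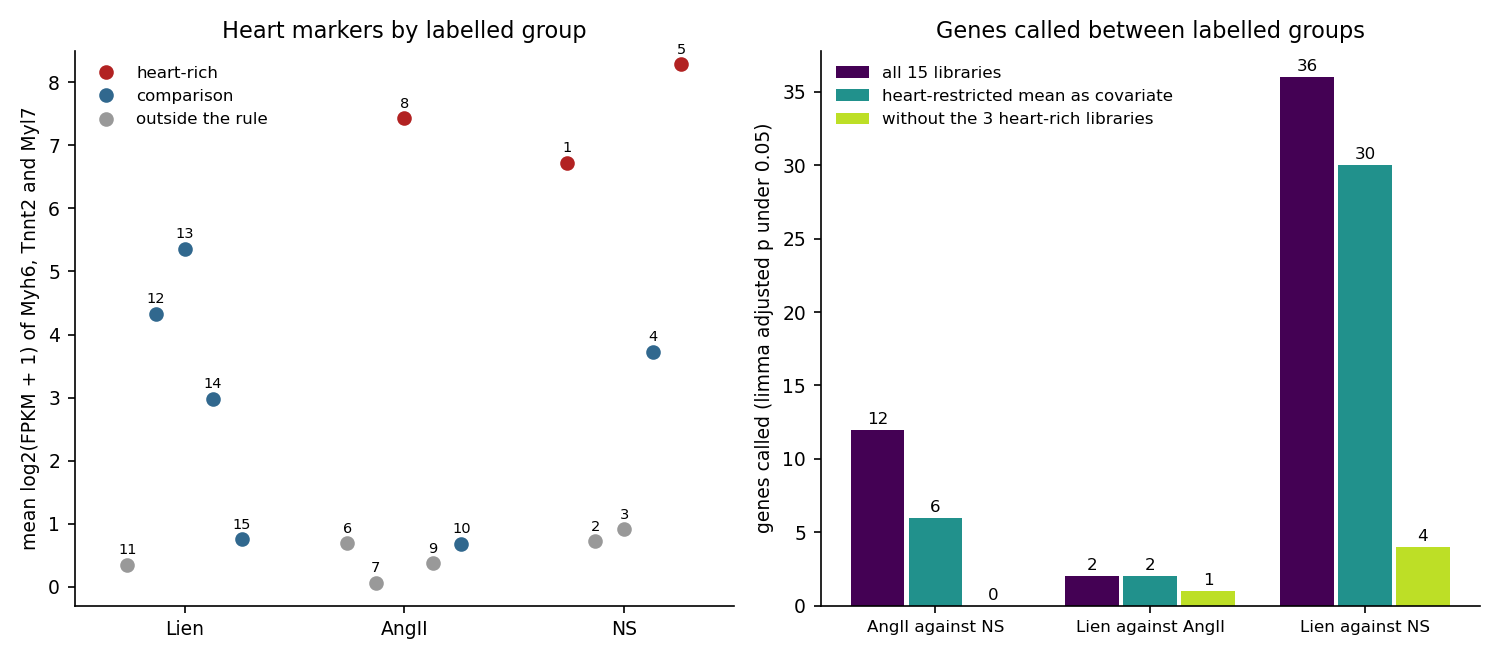
Left, mean log2(FPKM + 1) of Myh6, Tnnt2 and Myl7 in each library (numbered points) by labelled group, coloured as heart-rich, comparison or outside the rule. Right, number of genes called by limma in each comparison with all 15 libraries, with heart-restricted genes as a covariate, and without the 3 heart-rich libraries, where AngII against NS falls to 0 calls and Lien against NS to 4.

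Of the genes called between labelled groups, 0 of the 12, 0 of the 2 and 0 of the 36 follow heart muscle or run the opposite way. Since 1.02% of all measured genes follow, counts of 0 in lists this short say nothing about the called genes. Their heart-rich minus comparison differences had medians of 0.44 (-0.57 to 1.28), -0.74 (-1.44 to -0.03) and 0.64 (-1.44 to 1.58). The median over all measured genes was 0.10. Label and library set overlap in part, so these differences are a description only. Without the heart-rich libraries, limma called 0 genes in AngII against NS (689 at an unadjusted p under 0.05, with 15235 tested), 1 in Lien against AngII and 4 in Lien against NS, and all 5 of these calls were among those made with all libraries. B4galt1, which adds galactose to glycoproteins, was called in both Lien comparisons, and Bcl6b, Slc25a25 and Dusp10 in Lien against NS. That fit has 2 fewer NS libraries and 1 fewer AngII library. With all 15 libraries and the mean of the heart-restricted genes as a covariate, 6, 2 and 30 genes were called, of which 4, 2 and 28 were called without it. Leaving out single libraries lowered the calls in some fits and raised them in others. AngII against NS rose to 17 without Lien 13, 16 without Lien 11 and 15 without NS 3. Without Lien 11, Lien against AngII rose to 3 and Lien against NS to 37. For AngII against NS, 1 gene was called when NS 1 was left out and 1 when AngII 8 was. The count was 2 after removal of NS 2, of NS 4 and of AngII 7, and 3 after removal of AngII 6. It was 4 after removal of NS 5 and of AngII 9, and 6 after removal of AngII 10. For Lien against AngII, 1 gene was called when any of AngII 6, AngII 7, AngII 10, Lien 14 and Lien 15 was dropped. Lien against NS had 18 without NS 1, 11 without NS 2, 23 without NS 4, 21 without Lien 13 and 16 without Lien 14.

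The depth of the libraries is unknown. The deposited values summed to 500801 to 542490 FPKM per heart-rich library, 489648 to 569546 per comparison library and 477095 to 536441 outside the rule. Genes at 0.5 FPKM or more numbered 14285 to 14448 in the heart-rich libraries, 13484 to 13983 in the comparison libraries and 15055 to 16299 outside the rule, so the 3 sets did not overlap in this count. Its part in the results was not tested. The heart list held 0.588% to 0.95% of the sum in the heart-rich libraries and 0.205% to 0.273% in the comparison libraries. Outside the rule it held 0.175% to 0.527%, the highest in NS 3, where the heart-restricted genes summed to only 8.81 FPKM.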

How the data were processed

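RNA was measured in 15 libraries of mouse vascular tissue. The deposited table holds 131437 transcripts with 1 value per library, with no unit named in the header. The deposited values were read as FPKM, being fractional and per transcript, with unequal totals. The submitters' processing notes name limma without version or role. The aligner is not given in the sources used here. Depth is unknown for want of fragment counts, and no interval was computed from it.

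Of 101208 Ensembl transcripts, 99965 matched GENCODE M21 (GRCm38) and were summed to 32930 genes, and 1243 did not match. Gene values were taken as log2(FPKM + 1), a scale that understates the change of low genes. The members and gene lists were chosen with earlier results of these data known. Labelled groups were compared with limma 3.58.1 in R 4.3.3 (trend and robust options, two-sided, Benjamini-Hochberg over the 15586 genes that reached 0.5 FPKM in 5 or more libraries). Both steps were tried on simulated data. Tables were made with Python 3.11.15 and pandas 2.3.3.

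Named genes were, for the markers and each heart, energy, atrial, ventricular or pacemaker list, up to 5 with the highest level and up to 3 that did not follow, and up to 2 of each other list. Outside the lists they were up to 15 following and 10 opposed genes with a mean of at least 1 FPKM and a standard symbol, and 2 on each side of the limit. For labelled comparisons they were the 3 heart genes with the smallest p, not all of which are given. Alternatives covered pseudocount, filter, scaling, the comparison set and each library left out. Some genes that the rule names are not reported here.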

Additional observations from a re-analysis of the deposited data

Results flagged for a closer look

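AngII 8 lay far from the 4 other AngII libraries in heart measures. Its log2(FPKM + 1) was 7.20 for Myh6 (0 to 0.26 in the other 4), 7.55 for Tnnt2 (0.07 to 2.04) and 7.55 for Myl7 (0 to 0.28). Its list mean was 5.40 for heart-restricted genes (0.32 to 0.60), 4.05 for atrial genes (1.41 to 1.70), 3.38 for peptide hormones (1.41 to 1.61) and 2.16 for mesothelium (0.63 to 1.03). Lien 11, the only Lien library outside the rule, stood above the other Lien libraries at 1.93 for heart transcription factors (1.02 to 1.18). It also did so at 1.82 for channels and junctions (1.40 to 1.51) and 2.23 for pacemaker genes (1.19 to 1.46). Its Myl7 was listed at 0. Such levels were not peculiar to Lien 11. The 6 libraries outside the rule ran from 1.55 to 1.93 for heart transcription factors (median 1.84, against 1.61 in the heart-rich libraries). For pacemaker genes they ran from 1.71 to 2.23 (median 2.08, against 1.66). For channels and junctions they ran from 1.58 to 1.82 (median 1.69, against 2.16). Fast skeletal muscle genes averaged 8.25 in NS 3 (0.87 to 2.31 in the other NS libraries) and 5.62 in AngII 9 (0.90 to 1.87). In each flagged case the gap to the next library took up most of the group's range, as in 12 of 54 groups of values. The lists share genes, so the 54 groups are not independent, and the count is not set against chance. The 7 gaps of AngII 8 include the genes it was chosen for and are a description only. Among assembled transcripts without a public identifier, 126 lay above all comparison libraries with means that differed by at least 1 on the log2 scale, and 19 of those stayed under 0.5 FPKM in all 6 libraries outside the rule. One of them stood at 100.5, 160 and 125 FPKM in NS 1, NS 5 and AngII 8, against 0 to 38.0 FPKM in the comparison libraries and 0 in the 6 others.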

How the results depend on the processing

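The number of genes following heart muscle, 152, became 279 with a pseudocount of 0.1, 62 against all other 12 libraries (55 shared), 663 with NS libraries alone and 955 with AngII libraries alone, where fewer libraries had to separate, and 158 to 229 with 1 library left out. The number running the opposite way, 7, became 20 with that pseudocount, 19 with quantile normalization, 15 with scaling to one median, 238 with NS alone, 523 with AngII alone and 9 to 32 with 1 library left out. Quantile normalization and the median scaling moved the median of all genes by -0.11 and -0.13 and left 122 and 126 genes following, all among the 152. Of the heart list 35 to 40 genes followed with 1 library left out. Calls in AngII against NS, 12, became 2 with no filter, 6 with scaling to one median, 6 with the heart covariate, 0 without the heart-rich libraries, 0 with the 9 libraries of the rule and 1 to 17 with 1 library left out. Calls in Lien against AngII, 2, became 1 with quantile normalization, 1 without the heart-rich libraries, 4 with the 9 libraries and 1 to 3 with 1 left out. Calls in Lien against NS, 36, became 23 with no filter, 4 without the heart-rich libraries, 11 with the 9 libraries and 11 to 37 with 1 left out. Calls on the heart list stayed at 0 in all 3 comparisons and all 22 alternatives of each (0 to 0 with 1 left out). Where no construction above gives it, the cause was not tested. Of the recomputed differences of named heart genes, 731 moved by less than the spread between libraries and 43 moved further. None changed sign among genes that follow heart muscle. For the other named heart genes, some with differences near 0, changes of sign were not counted. No paired analysis was possible because the replicate numbers of the 3 groups, 1 to 15, are not shared. Without fragment counts, values near 0 cannot be given a counting error.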
